A study of Sus scrofa with 4 samples.

Results

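The genes described here encode proteins of the mitochondrial ribosome (symbols starting MRPL for its large and MRPS for its small subunit) and of the machinery that imports proteins into mitochondria (TIMM for the inner and TOMM for the outer membrane). They were taken by symbol from probesets annotated with exactly 1 gene, and each gene was represented by its brightest probeset. This gave 76 genes of the 6765 named on the array, with 36 MRPL, 22 MRPS, 11 TIMM and 7 TOMM symbols and 99 probesets. The RNA came from fibroblasts grown out of biopsies of back skin from 2 Duroc pigs, taken 20 weeks after wounding. Each pig carried both a shallow and a deep wound, and each wound gave 1 confluent culture in medium with fetal bovine serum and 1 porcine Affymetrix array. There were thus 2 shallow and 2 deep cultures, named here by depth and pig, and cultures of the same pig were matched through the partner numbers in the sample titles. Those numbers were read in the order in which the samples are listed, which the labels do not state outright, and each within-pig value rests on that reading. The cultures are wound cells after growth in vitro, and no culture from unwounded skin was analysed here. With 1 culture per pig and depth, p-values of the main fit rest on how far the 2 within-pig differences disagreed, with 1 residual degree of freedom. To this the fit adds a spread learned from all tested probesets, worth 6.88 degrees of freedom. The p-values speak only for these 2 animals and their cultures.

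Mitochondria keep a small genome that codes for a few subunits of the respiratory chain, and the mitochondrial ribosome translates these messages at the inner membrane. Its proteins are themselves made in the cytosol from nuclear genes and must be imported, as must nearly all other mitochondrial proteins. TOM, the translocase of the outer membrane, receives precursors and passes them through its channel. Small TIM chaperones carry some of them across the space between the membranes, and the TIM translocases insert them into the inner membrane or pull them into the matrix. Fibroblasts, like other respiring cells, need both systems to build their respiratory chain.

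The arrays differed in quality and make-up. A common gauge of RNA integrity and labelling length, how much brighter actin's 3' probes are than its 5' probes, was 1.96 in pig 1 and 2.41 in pig 2 for shallow and 3.28 and 6.10 for deep cultures, although the labels give a high RNA integrity number for every preparation. All 12 measured fibroblast markers were above the highest control for absent transcripts on each array, and for 12 of 12 the deep signals exceeded the shallow ones in every pairing (median difference 0.98 on the log2 scale) against 23.2% of all probesets. In limma 0 of the 12 passed the adjusted threshold, and 9 were higher at an unadjusted p under 0.05, against 6.94% of all probesets. The 11 epithelial markers on the array summed to 6258 intensity units on the shallow array of pig 1 and to between 219 and 371 on the other arrays. On the shallow array of pig 1, 10 of those 11 were above the absent controls, against 3 to 5 on the others. On the other arrays CDH1, EPCAM, KRT19 and DSP read at most 27.3. The list was not uniformly dim there, since KRT8 read 95.1 to 196, CLDN4 36.6 to 41.6, CLDN7 26.8 to 45.5 and SFN 6.81 to 37.0. Cell-cycle genes were also highest on the shallow array of pig 1, where 19 genes summed to 19333. Their sum was 6547 on the shallow array of pig 2 and 3029 and 3429 on the deep arrays. The results for the group and for the main genes are therefore given with and without the shallow array of pig 1. In such cultures a smaller share of one cell type and less RNA per cell cannot be told apart.

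Genes of the mitochondrial ribosome and of import read lower in deep than in shallow cultures as a group, by small amounts, and no single gene passed the test. All 76 passed the filter on dim probesets, which removed those with a mean signal under 27.1. The difference of deep minus shallow was below 0 for 67 of the 76, against 51.9% of the 14399 probesets tested. Its median was -0.41 on the log2 scale over the 76 genes and -0.02 over all probesets, and single genes ran from -1.24 for MRPS36 to 0.57 for MRPL24. In limma with the pig as a block, 0 of 76 were lower and 0 were higher at an adjusted p of 0.05, and the smallest adjusted p was 0.147, for MRPS12. Over all probesets 0.104% were lower and 0.236% were higher by the same rule, and the probesets called differed by at least 1.82 on the log2 scale, a size that 0 of the 76 genes reached. The absence of calls therefore does not show that these genes were level. At an unadjusted p under 0.05, 16 of the 76 were lower, or 21.1%, against 6.92% of all probesets, and 0 were higher, against 6.94%. Both deep arrays lay below both shallow arrays for 42 genes, or 55.3%, against 25.5% of all probesets. The opposite order held for 5 genes, or 6.58%, against 23.2%.

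**Figure D1:**
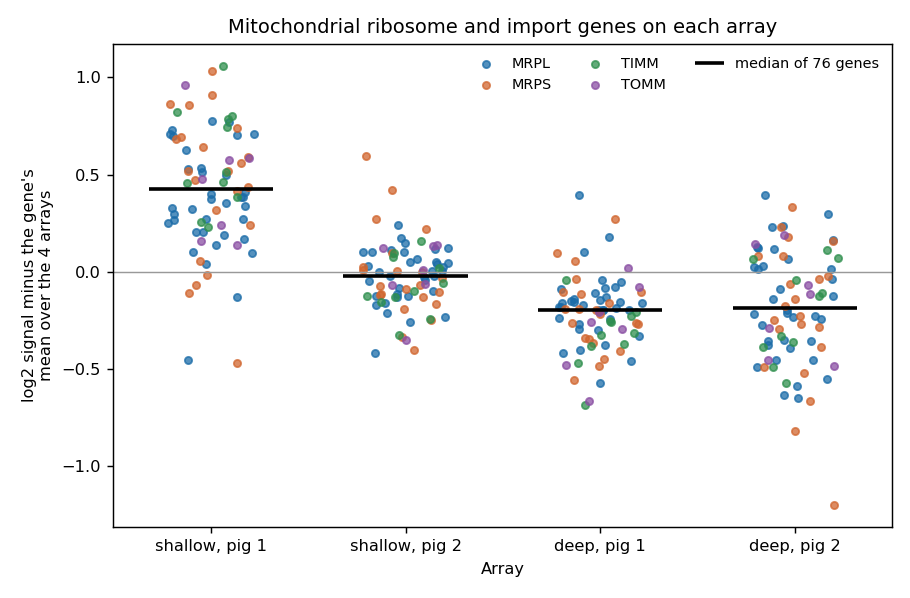
Each point is 1 of the 76 genes on 1 array, given as its log2 signal minus that gene's mean over the 4 arrays, with points spread sideways for sight and coloured by family. Black bars are medians, at 0.43 for the shallow array of pig 1, -0.02 for the shallow array of pig 2, -0.20 for the deep array of pig 1 and -0.19 for the deep array of pig 2.

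The size of the group's difference rested on 1 array. Of the 76 genes, 64 had their highest signal on the shallow array of pig 1, or 84.2%, against 32.3% of all probesets. The median signal of the 76 genes was 612 on that array, 389 in the shallow culture of pig 2, and 335 and 356 in the deep cultures. The shallow arrays differed from each other by more than the deep arrays did: the median of pig 2 minus pig 1 was -0.44 for shallow and 0.01 for deep cultures, and over all probesets it was 0.02 and 0.0015. In both pigs 43 genes were lower on the deep array, against 31.6% of all probesets, 6 were higher, against 29.8%, and 27 went opposite ways.

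Within pig 1, 69 of 76 genes were lower on the deep array, or 90.8%, against 49.4% of all probesets, and the median difference was -0.69. Within pig 2, 44 were lower, or 57.9%, against 52.5%, a share near the background, with a median of -0.13 against -0.03 over all probesets. Without the shallow array of pig 1, and then without a pig block, the median over the 76 genes was -0.15 against -0.03 over all probesets, and 52 genes were below 0, or 68.4%, against 53.6%. By limma 0 of 76 were lower past the adjusted threshold in that fit, against 0.271% of all probesets, and 2 were lower at an unadjusted p under 0.05, or 2.63%, against 3.97% of all probesets. The number of genes with both deep arrays below the remaining shallow array was 42, or 55.3%, against 38.1%. Without the shallow array of pig 2 the median was -0.63, and 18 of 76 genes were lower past the adjusted threshold in limma, or 23.7%, against 5.99% of all probesets. In that fit the lone shallow array is the one with the highest epithelial and cell-cycle signals, and it is assumed to vary like the deep group. Epithelial and cell-cycle signals were highest, and the actin ratio lowest, on the array where most of the 76 genes read highest. The actin ratio differed between the deep arrays (3.28 and 6.10), where the median signals were 335 and 356. The part of these measures in the group's difference was not tested, since 4 arrays cannot separate them from depth and pig. A further fit had the actin ratio as a covariate in place of the pig block. There the median was -0.25, and of the 23 genes named by rule 12 had a difference over 1.5 times smaller or of the other sign, among them MRPL18 (-0.12), MRPL50 (-0.32), MRPS25 (-0.38), TIMM13 (-0.21), TIMM50 (-0.52) and TOMM20 (-0.63), while 4 had one over 1.5 times larger.

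**Figure D2:**
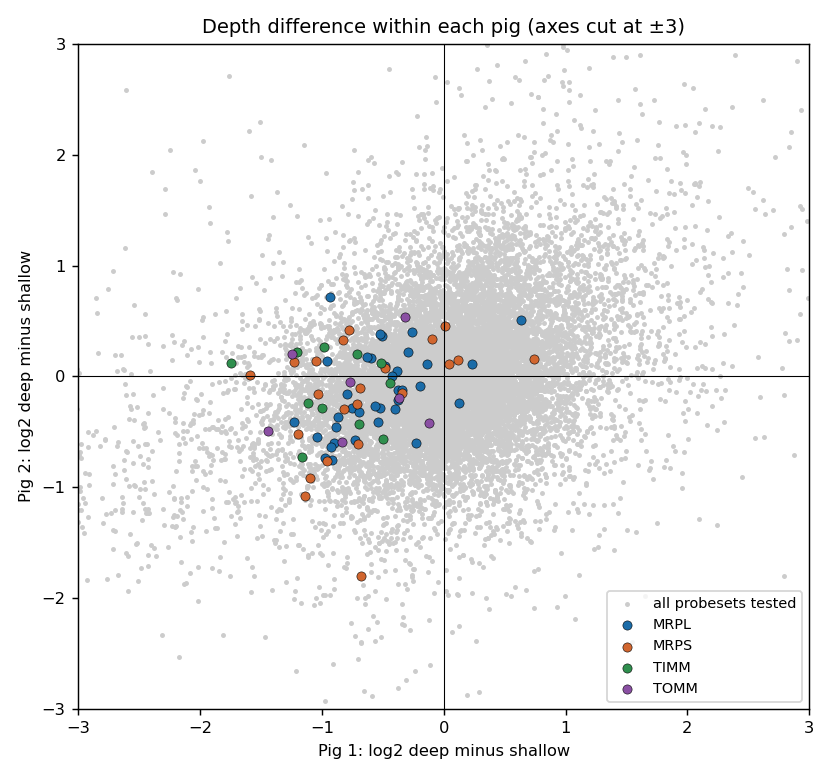
Deep minus shallow on the log2 scale within pig 1 (horizontal axis) and pig 2 (vertical axis) for all 14399 probesets tested (grey) and the 76 genes coloured by family, with 204 grey points outside the axes at 3 in either direction. Of the coloured points, 69 lie left of 0 for pig 1 and 44 lie below 0 for pig 2.

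The large subunit holds the site where peptide bonds form. Its proteins are given in 2 sets by textbook origin, those with a bacterial relative and those that mitochondria added. Of 21 with a bacterial relative, 18 were below 0, with a median of -0.41, or -0.23 without pig 1's shallow array. Both deep arrays were below both shallow ones for 12 (57.1%) and above for 2 (9.52%), against the 25.5% and 23.2% of all probesets. MRPL18, a homologue of the bacterial protein that binds 5S RNA, read 365 in pig 1 and 236 in pig 2 for shallow and 193 and 139.9 for deep cultures, the order of pigs kept throughout. Both deep signals were below both shallow signals, and the difference was -0.83 ± 0.30 (SE; limma, adjusted p = 0.269). Without the shallow array of pig 1 it was -0.52. The gene's other probeset read 206 and 151.7 in shallow and 124 and 162.9 in deep cultures, with overlap and a difference of -0.31.

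MRPL11, of the stalk base where translation factors bind, read 546 and 319.8 in shallow and 288 and 205 in deep cultures. Its groups did not overlap either, and its difference of -0.78 ± 0.29 (limma, adjusted p = 0.281) became -0.40 without the shallow array of pig 1, and 0.00039 with the actin ratio as a covariate. A further 3 genes of this set, MRPL1, MRPL14 and MRPL15, named after their values were seen, had differences of -0.75, -0.67 and -0.65 with an unadjusted p under 0.05, which became -0.42, -0.31 and -0.44 when that array was left out. Among them MRPL1, which forms the mobile stalk by which spent transfer RNA leaves, had signals of 779 and 494 in shallow and 418 and 326 in deep cultures, so the order of the groups was that of MRPL11.

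Among other bacterial relatives in the large subunit, MRPL3 and MRPL17 had small differences (-0.01 and -0.07) and MRPL24 had a positive one. MRPL3, which reaches towards the catalytic centre, read 1427 and 1261 in shallow and 1299 and 1363 in deep cultures. The deep signals lay between the shallow ones, the difference was -0.01 ± 0.27, and its 95% interval ran from -0.63 to 0.60. Its dimmer probesets differed by -0.61 and -0.32. MRPL17 read 1655 and 1104 in shallow and 1152 and 1443 in deep cultures, so the groups overlapped, and the pigs went opposite ways at -0.52 and 0.39. MRPL24 had the highest difference of the 76. Its signals were 67.9 and 86.0 in shallow and 105 and 123 in deep cultures, both deep arrays above both shallow arrays in a dim probeset, with a difference of 0.57 ± 0.35 (limma, adjusted p = 0.520), and 0.40 in the fit that leaves out pig 1's shallow array.

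Of the 16 large-subunit proteins that mitochondria added, 16 were below 0, with a median of -0.27, or -0.12 without pig 1's shallow array, and 9 (56.2%) had no overlap with deep below, against the same 25.5%. MRPS30 is counted here, because it sits in the large subunit despite its symbol. MRPL50 read 339 and 229.9 in shallow and 173 and 138 in deep cultures. The groups did not overlap, and the difference was -0.85 ± 0.30 (limma, adjusted p = 0.264), or -0.57 without the shallow array of pig 1. MRPL58, a peptidyl-tRNA hydrolase built into the ribosome that frees stalled chains, read 733 and 535 in shallow and 355 and 366 in deep cultures. The deep arrays were close to each other and below both shallow arrays, at 361 ± 7.22 against 634 ± 139.9 (SD, n = 2 arrays each). The difference was -0.80 ± 0.29 (limma, adjusted p = 0.269), and leaving out pig 1's shallow array made it -0.57. MRPL45, which holds the ribosome to the inner membrane and is named after its values were seen, shows the other extreme. It read 418 and 217 in shallow and 219 and 357 in deep cultures, so the pigs went opposite ways by -0.93 and 0.72.

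The small subunit reads the messenger RNA. Of its 13 proteins with a bacterial relative, 9 were below 0, with a median of -0.40, and the median was -0.72 within pig 1 and 0.08 within pig 2. Deep was below shallow without overlap for 5 (38.5%) and above for 3 (23.1%), and the latter share is near the 23.2% of all probesets. MRPS12, whose bacterial relative guards the accuracy of decoding, read 491 and 407 in shallow and 223 and 192 in deep cultures. Both deep signals were below both shallow signals by nearly the same step in each pig, -1.14 and -1.08, and the deep signal was 2.16-fold lower. At -1.11 ± 0.28 it had the smallest p of the 76 (limma, unadjusted p = 0.00457, adjusted p = 0.147), and it was -0.97 without the shallow array of pig 1. Its 2 dimmer probesets had differences of -0.60 and -0.46.

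MRPS5, another protein of the decoding region by its bacterial relative, read 305 and 244 in shallow and 157 and 144 in deep cultures. The groups did not overlap, and the difference of -0.86 ± 0.30 (limma, adjusted p = 0.262) was -0.70 without the shallow array of pig 1. MRPS10 and MRPS21 went the other way. MRPS10 read 1556.5 and 2194 in shallow and 2605 and 2444 in deep cultures, a difference of 0.45 ± 0.29 with its lowest signal in pig 1's shallow culture, whose removal made it 0.20. MRPS21 read 1123 and 1121 in shallow and 1220.4 and 1243 in deep cultures. The 2 arrays of each group were nearly level, with no overlap of groups and a difference of 0.13 ± 0.26 whose 95% interval ran from -0.47 to 0.74.

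Of the 7 small-subunit proteins that mitochondria added, 6 were below 0, with a median of -0.46, or -0.13 without pig 1's shallow array. For 4 (57.1%) there was no overlap with deep below, against 25.5% of all probesets. MRPS25 read 970.5 and 537 in shallow and 422 and 373 in deep cultures. The groups did not overlap, and its difference of -0.86 ± 0.29 (limma, adjusted p = 0.249) was -0.44 without the shallow array of pig 1. MRPS23, named after its values were seen, had a difference of -1.01, but its 29.8 on the deep array of pig 2 was below the highest absent control there, 30.9, so that size is not a measured one. It was the single gene of the 76 with a signal under the absent controls of its array. MRPS36 carries a ribosomal symbol but is now known as a part of the alpha-ketoglutarate dehydrogenase complex of the citric acid cycle. It read 137 and 133 in shallow and 85.8 and 38.3 in deep cultures, where the shallow arrays were level and the deep array of pig 2 was far the lowest. Its difference of -1.24 ± 0.41 (limma, adjusted p = 0.236) was the lowest of the 76, but its size rested on 1 deep array. Leaving out that of pig 2 made it -0.66, leaving out that of pig 1 made it -1.82, and leaving out pig 1's shallow array made it -1.22. It was 0.00098 with the actin ratio as a covariate.

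**Figure D3:**
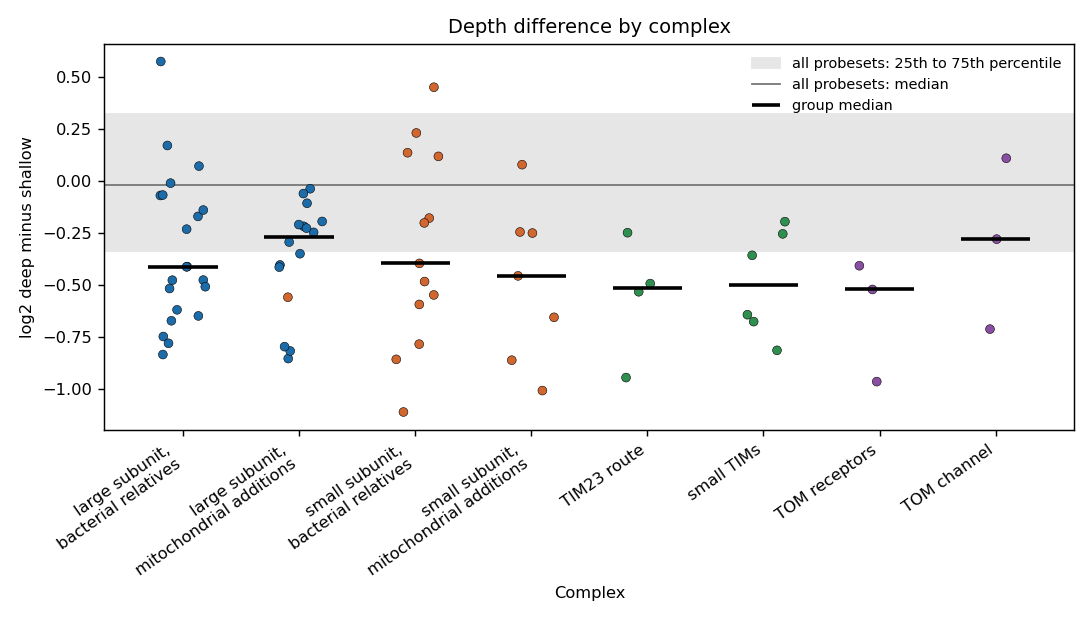
Each point is 1 gene's deep minus shallow difference on the log2 scale, grouped by complex and coloured by family as in the other plots (blue MRPL, orange MRPS, green TIMM, purple TOMM), and black bars are group medians. The grey line and band are the median and the 25th to 75th percentile of all probesets tested, -0.02 and -0.34 to 0.32. MRPS36, TIMM22 and TOMM34, which belong to none of these complexes, are left out.

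The import genes leaned the same way as the ribosomal ones. Among TOMM genes 6 of 7 were below 0 with a median of -0.41, and among TIMM genes 11 of 11 with a median of -0.53. Of all probesets 51.9% were below 0. The medians were -0.32 for MRPL and -0.47 for MRPS, and the families were not tested against each other. Without the shallow array of pig 1 these medians were -0.26 for TOMM, -0.16 for TIMM, -0.16 for MRPL and -0.13 for MRPS. TOMM20, the outer membrane receptor for amino-terminal targeting signals, read 1599.7 and 827 in shallow and 589.5 and 588.6 in deep cultures. The deep arrays were equal to within 1 unit and below both shallow arrays, and the shallow array of pig 2 was nearer to them than to the other shallow array. The difference was -0.96 ± 0.31 (limma, adjusted p = 0.231), or 1.95-fold lower, and -0.49 without the shallow array of pig 1.

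The other receptors were less apart. TOMM22, which joins the receptors to the channel, read 2050.5 and 1406 in shallow and 1203 and 1361 in deep cultures. The groups did not overlap, but the shallow array of pig 2 was close to the deep arrays, and the difference of -0.41 ± 0.29 was -0.14 without the shallow array of pig 1. TOMM70, the receptor for carrier precursors delivered by cytosolic chaperones, read 113 and 72.1 in shallow and 47.5 and 83.0 in deep cultures. The pigs went opposite ways, and its difference was -0.52 ± 0.45, or -0.20 without pig 1's shallow array and -0.12 without its deep array.

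Among small subunits of the TOM channel, TOMM5 read 2397 and 1767 in shallow and 1343 and 1174 in deep cultures. Both deep arrays were lower, by -0.71 ± 0.27 (limma, adjusted p = 0.294), and by -0.49 without the shallow array of pig 1. TOMM7, which loosens the complex, read 2775 and 1843 in shallow and 2221 and 2675 in deep cultures. Here the shallow arrays enclosed the deep ones, and the difference was 0.11 ± 0.31. TOMM34, a cytosolic co-chaperone of import, and TOMM40L, a paralogue of the channel protein, differed by -0.27 and -0.28 without overlap of the groups.

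At the inner membrane, the 4 measured proteins of the presequence route were below 0. Their median was -0.51, or -0.24 without pig 1's shallow array. For 3 of the 4 both deep arrays were below both shallow ones, against 25.5% of all probesets. TIMM50, the receptor that takes precursors from TOM, read 716 and 464 in shallow and 320.5 and 279.6 in deep cultures. Both deep arrays were below both shallow arrays, and the difference was -0.95 ± 0.28 (limma, unadjusted p = 0.0107, adjusted p = 0.203), a 1.93-fold lower signal. Leaving out pig 1's shallow array made it -0.63, and the gene's other probeset differed by -1.16 (limma, adjusted p = 0.153). TIMM21, which docks the translocase to TOM, TIMM44, the anchor of the import motor, and TIMM17B, of the channel, differed by -0.53, -0.49 and -0.25. Without pig 1's shallow array these were -0.34, 0.08 and -0.14, so TIMM44 had the opposite sign. TIMM22, the channel that inserts carrier proteins, differed by -0.56, with no overlap, and by -0.38 without that array.

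The small TIM chaperones of the intermembrane space differed mainly on the shallow array of pig 1. Of 6 measured, 6 had their highest signal there, as did all 11 TIMM and all 7 TOMM genes, against 32.3% of all probesets. For 2 of the 6 (33.3%) both deep arrays were below both shallow ones, near the 25.5% of all probesets. Their median was -0.99 within pig 1 and 0.12 within pig 2. TIMM8A, the gene of a deafness and dystonia syndrome, read 694 and 281 in shallow and 207 and 305 in deep cultures. The shallow array of pig 2 lay between the deep arrays, and the difference of -0.81 ± 0.43 was -0.16 without the shallow array of pig 1. TIMM13, the partner of TIMM8A, read 1248 and 696 in shallow and 625 and 569.9 in deep cultures. TIMM10 read 660 and 347 in shallow and 305 and 294 in deep cultures. For these last 2 the groups did not overlap, and the differences of -0.64 and -0.68 became -0.22 and -0.21 without the shallow array of pig 1. TIMM8B read 2469 and 1981 in shallow and 1725 and 2160.4 in deep cultures, with overlap and a difference of -0.20, the highest of the TIMM genes.

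**Figure D4:**
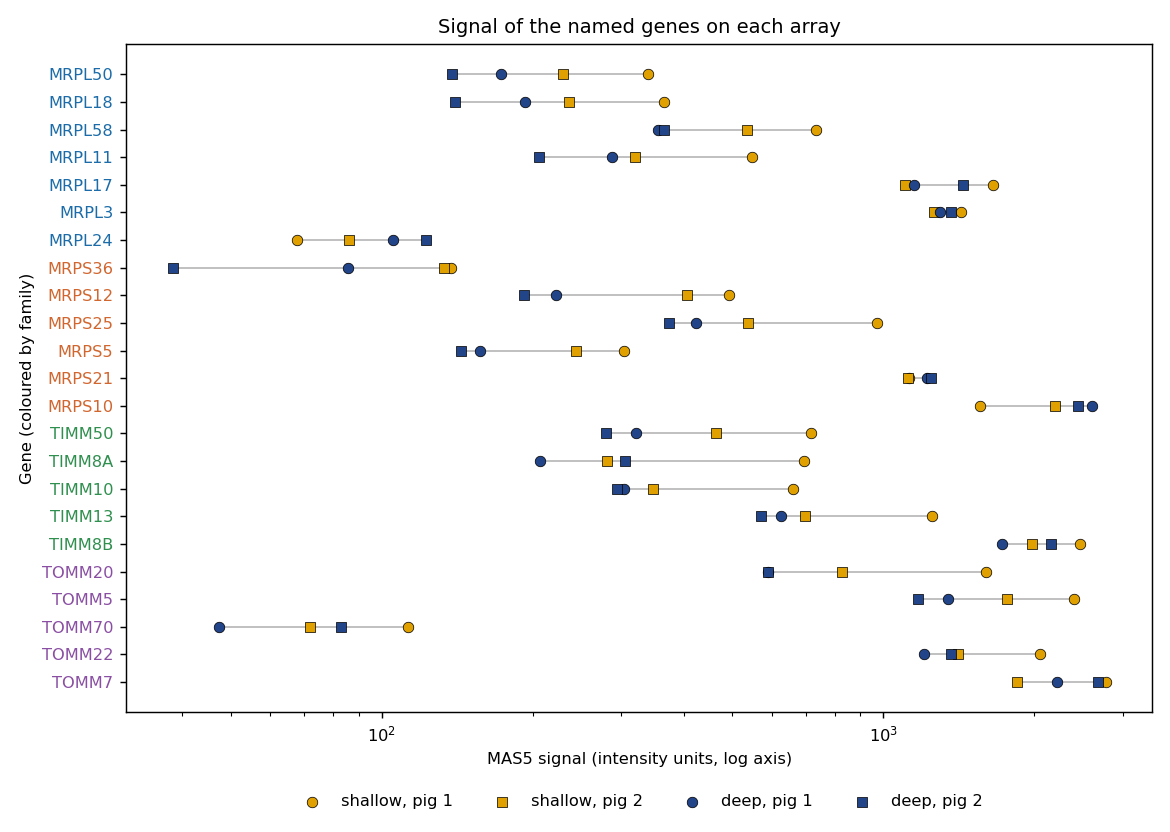
MAS5 signal on a log axis of the 23 genes named by rule, with 1 point per array (yellow shallow, blue deep, circles pig 1, squares pig 2) and a grey line from the lowest to the highest. In MRPS12, TIMM50 and MRPL50 both deep points lie left of both shallow points, in MRPL24 and MRPS10 they lie right, and in TIMM8A and TOMM70 they are mixed.

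Genes with more than 1 probeset gave a check on the choice of the brightest. For 17 genes there were 23 further probesets, of which 15 passed the filter. Of these, 13 had the same sign as the brightest probeset and 2 the opposite sign, and 0 passed the adjusted threshold in limma. The 2 were of MRPS9 (-0.25 against 0.23) and TIMM44 (0.03 against -0.49). MRPL3 differed by -0.01 by its brightest probeset and by -0.61 and -0.32 by the others.

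The wider mitochondrial gene-expression system showed differences of like or smaller size, with 0 genes past the adjusted threshold in limma in 8 lists of mitochondrial function, and 2 of 72 genes (2.78%) lower and 1 (1.39%) higher at an unadjusted p under 0.05, under the 6.92% and 6.94% of all probesets. Of 16 measured import partners without these symbols, such as processing peptidases and motor chaperones, 13 were below 0 with a median of -0.42, which was -0.59 within pig 1 and -0.20 within pig 2. The 2 with the largest differences were AGK, a lipid kinase that is also a subunit of the carrier translocase, at -0.79 ± 0.31, and CHCHD4, the oxidoreductase of the intermembrane space, at -0.76 ± 0.47. Without pig 1's shallow array they were -0.66 and -0.13. The matrix chaperone HSPA9, the motor of import, differed by 0.06 and the peptidase PMPCB by 0.03, both named after their values were seen. Of 9 mitochondrial translation factors 6 were below 0 with a median of -0.30, and the pig medians were -0.26 and -0.12. GFM1, the elongation factor that moves the ribosome along, read 482 and 281 in shallow and 195 and 171 in deep cultures. Its groups did not overlap (-1.01 ± 0.31; limma, unadjusted p = 0.0113, adjusted p = 0.208), and the release factor MTRF1 differed by -0.79 ± 0.38. Without pig 1's shallow array these were -0.62 and -0.50, and MTRF1 was -0.27 without the deep array of pig 2.

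Of 13 ribosome assembly and ribosomal RNA modification genes 12 were below 0 with a median of -0.23, but the median was -0.47 within pig 1 and 0.000031 within pig 2, and 8 were below 0 without pig 1's shallow array. MRM3, a methyltransferase, was at -1.02 ± 0.46 and DHX30, a helicase, at -0.63 ± 0.32, or -0.73 and -0.40 without that array. The 23.5 of MRM3 on the deep array of pig 2 was below the highest absent control there, 30.9, so its size is not a measured one. The 4 ribosomal proteins without an MRP symbol were all 4 below 0, with GADD45GIP1 at -0.79 ± 0.36 and CHCHD1 at -0.31 ± 0.28, or -0.50 and -0.13 without pig 1's shallow array. Of 7 genes that maintain, transcribe or handle mitochondrial nucleic acids 5 were below 0 (median -0.23, or -0.57 and -0.24 by pig). PNPT1, an exoribonuclease, was at -0.66 ± 0.31 and SLIRP, an RNA-binding protein, at 0.47 ± 0.27, or -0.21 and 0.23 without pig 1's shallow array. Of 7 measured mitochondrial tRNA synthetases and amidotransferase subunits 5 were below 0 (median -0.41), with opposite signs by pig, -0.52 and 0.04. GATB was at -0.57 ± 0.52, and at 0.03 without the deep array of pig 1. Its 18.4 on that array was below the highest absent control there, 21.8, so its size is not a measured one. QRSL1 was at -0.48 ± 0.29, and at -0.32 without the shallow array of pig 1. Markers of mitochondrial content, such as porins and citrate synthase, were closest to level, with a median of -0.17, pig medians of -0.23 and -0.04, and 8 of 11 below 0. Their largest differences were those of the nucleotide carrier SLC25A5, at -0.55 ± 0.30, and of IDH3A, of the citric acid cycle, at -0.47 ± 0.29. They were -0.22 and -0.37 without pig 1's shallow array.

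Regulators of mitochondrial genes were few on the array, with 5 of 14 measured and 3 below 0 (median -0.19, or -0.23 in pig 1 and 0.50 in pig 2). DDIT3, a transcription factor of the integrated stress response that mitochondrial faults can trigger, read 235 and 434 in shallow and 724 and 733 in deep cultures. Both deep arrays were above both shallow arrays (1.19 ± 0.31; limma, unadjusted p = 0.00526, adjusted p = 0.156), and the difference was 0.75 without pig 1's shallow array. ATF4, which acts upstream of it, read 3149 and 3513 in shallow and 4624 and 5571 in deep cultures, likewise without overlap (0.61 ± 0.28; limma, adjusted p = 0.383). MYC, which can drive ribosome and mitochondrial genes and is named after its values were seen, read 896 and 213 in shallow and 285 and 300.3 in deep cultures, with opposite differences in pig 1 (-1.65) and pig 2 (0.50). Beside these, the cell-cycle list had 18 of 18 measured genes below 0 with a median of -2.09, and within-pig medians of -3.30 in pig 1 and -1.02 in pig 2. Of them 1 was lower past the adjusted threshold, CENPF, a kinetochore protein (-3.82 ± 0.55; limma, adjusted p = 0.0453), whose 9.45 on the deep array of pig 2 was below the absent controls there, so its size is not a measured one. RRM2, which makes deoxynucleotides, differed by -2.75 ± 0.50, or -1.68 without pig 1's shallow array, and CENPF was -2.25 without the deep array of pig 2.

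**Figure D5:**
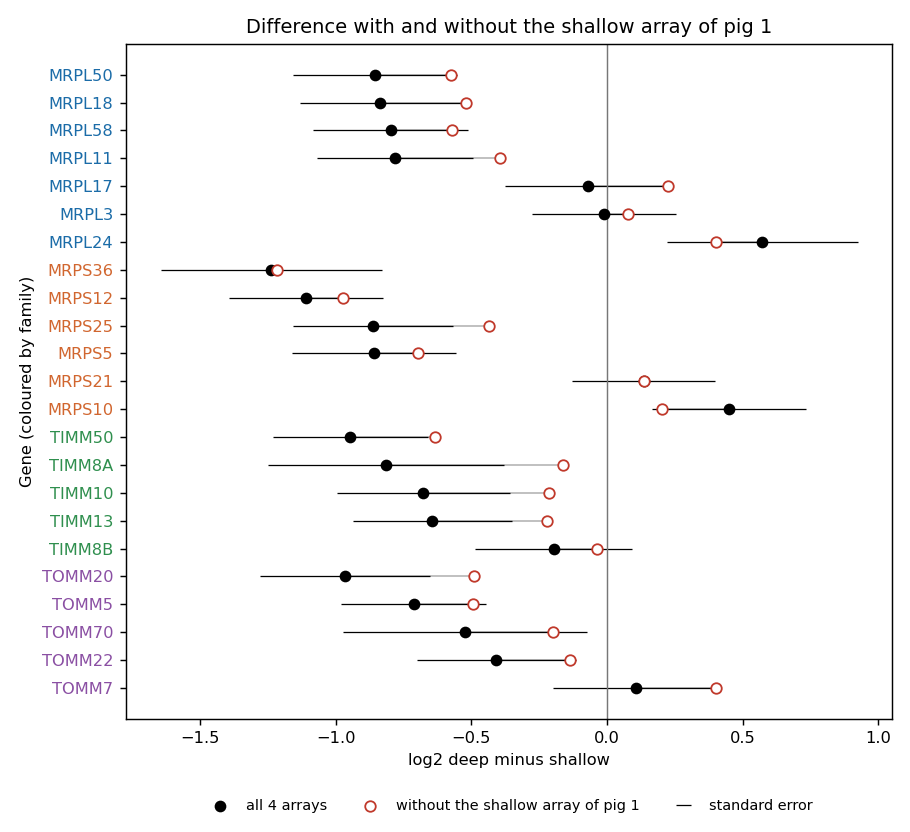
Deep minus shallow on the log2 scale for the 23 genes named by rule, with all 4 arrays (filled points, bars are the standard error of the moderated fit) and without the shallow array of pig 1 (open). Open points lie near the filled ones for MRPS36 and MRPS12, at -1.22 and -0.97 (MRPS36 is -0.66 without the deep array of pig 2, which is not drawn), and far from them for TIMM8A and TIMM10, at -0.16 and -0.21.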

How the data were processed

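Each probeset has 1 deposited intensity per array, the linear MAS5 signal, which the authors made in GCOS 1.0 (per the submitters' processing notes). The trimmed mean was 250.1 on every array, and the scaling target is not given in the sources used here. Precision is limited by having 4 arrays. Here 124 control probesets were left out, signals under 1 were set to 1, values were taken to log2, and 14399 of 23999 probesets at or above the 40th percentile of mean log2 signal were kept. Genes were named through the platform annotation, and 6 probesets with more than 1 entry were left out: 5 of MRPL55, which also list another gene, and 1 of MRPL22, which repeats that symbol under different gene IDs and could be read as a single symbol; 75 of 76 gene IDs were found in the current gene table with the same symbol, MRPS25 being the exception. Levels of different genes were not compared, since probesets differ in brightness.

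Deep and shallow cultures were compared with limma 3.58.1 in R 4.3.3 (lmFit and eBayes with trend, pig as a block), with Benjamini-Hochberg adjustment over the 14399 probesets. The block comes from the series design and the partner numbers in the titles; same-pig deviations had a correlation of -0.01. The code was tested on simulated data. SE is that of the moderated fit. The highest of 23 controls for absent transcripts on an array marked its background. Named genes were, in each family, the 4 with the smallest p, the 2 brightest and the highest and lowest difference, and in each other list the 2 with the largest difference. The genes, lists and tests were chosen with earlier results of these data known, and the division by bacterial origin was made after the values were seen. No genome build is given in the sources used here, so no positions are printed, and a planned search of promoters for motifs was not run. Alternatives were no block, other filters, floors, scalings and trend, the mean over probesets, the actin ratio as a covariate in place of the block and leaving out each array.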

Additional observations from a re-analysis of the deposited data

How the results depend on the processing

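The median over the 76 genes stayed below 0 under each alternative, between -0.63 and -0.15 with 1 array left out and between -0.44 and -0.25 under the others. With 1 array left out, family medians ran from -0.47 to -0.16 (MRPL), -0.76 to -0.13 (MRPS), -0.74 to -0.16 (TIMM) and -0.68 to -0.26 (TOMM). The count of genes lower past the adjusted threshold in limma was 0 except with 1 array left out, where it was 0 to 18. Genes with deep arrays below shallow arrays then numbered 42 to 66, or 55.3% to 86.8%, against 37.3% to 40.1% of all probesets. Those with deep above numbered 5 to 14, and the share of all probesets was not counted for that order. Without the replicate block the median was -0.41, and the smallest adjusted p in limma among the 76 was 0.241. In that fit 15 of the 76 genes were lower at an unadjusted p under 0.05, against 6.69% of all probesets.

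Over all probesets limma called 49, 34 higher and 15 lower in deep. It called 0 without the replicate block (1885 at an unadjusted p under 0.05), 0 without the filter (2246) and 0 with the actin ratio as covariate (283). It called 217 with the filter at the 60th percentile, 96 after quantile normalization, 18 with the mean over probesets, 3 without trend and 0 to 1597 with 1 array left out. Centred on the median of tested probesets, a setting added after the data were seen, it called 5, 5 higher and 0 lower.

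Among the 23 genes named by rule, signs turned for MRPL11 (0.00039) and MRPS36 (0.00098) with the actin ratio. They turned for MRPL3 after quantile normalization (0.00052) and for MRPL17 and MRPL3 with the added centring (0.0017 and 0.059). With 1 array left out, signs turned among these 23 for MRPL17 (-0.36 to 0.22), MRPL3 (-0.10 to 0.078) and TOMM7 (-0.19 to 0.40). Signs of other genes turned too, among them TIMM21 (0.070), TOMM34 (0.056) and MTRF1 (0.50) with the actin ratio. TIMM44 (0.08) and MRPL45 (0.37) turned without the shallow array of pig 1, and GATB (0.03) without the deep array of pig 1. The causes were not tested.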
